A study of Mus musculus with 4 samples.

Results

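The 9 genes described here encode interferon signalling factors and sensors of foreign RNA: the transcription factors Irf1, Irf7, Irf9 and Stat2, the protease Usp18, the cytosolic RNA helicases Ddx58 (RIG-I), Ifih1 (MDA5) and Dhx58 (LGP2), and the endosomal receptor Tlr3. They were chosen by symbol, with earlier results of these data known. Probe sets whose annotation names such a gene alone were used, and all 9 were found among 19938 named genes. Each had 1 such probe set except Irf1, which had 2. They were measured in mouse embryonic fibroblasts of C57BL/6 background, prepared from E13.5 embryos, that lack BAX and BAK and were transformed with SV40. All groups share that genotype and transformation. The cells carried a retrovirus for p63, a relative of p53 that controls transcription in stratified epithelia, or for GFP, and each line was treated with etoposide, a topoisomerase II poison, or mock-treated for 6 h. This gives p63 cells with etoposide, p63 cells with mock treatment, GFP cells with etoposide and GFP cells with mock treatment, with 1 Affymetrix array each. The dose of etoposide is 10 µg/mL in the treatment protocol and the same number per microlitre in other labels. The promoter and p63 isoform of the virus, and whether the transduced cells were cloned, are not stated in the labels used here.

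Cells detect viral RNA through the helicases RIG-I and MDA5, which signal through the mitochondrial adaptor MAVS, and through TLR3, which signals from endosomes through TRIF (Ticam1). Both routes activate IRF3 and IRF7 and lead to the production of type I interferon. Interferon acts through the receptor chains IFNAR1 and IFNAR2 and the kinases JAK1 and TYK2. It assembles STAT2 and IRF9 into the complex ISGF3, which binds the interferon-stimulated response element (ISRE) of its target genes. Most of the 9 genes are themselves such targets, so the pathway amplifies its own components. IRF1 is induced mainly by NF-kB and by interferon gamma, which acts through a GAS element. USP18 removes the ubiquitin-like protein ISG15 from its substrates and blocks signalling at IFNAR2.

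The start regions of the genes are shown because ISGF3 and other interferon-activated factors act there. RefSeq windows (GRCm38.p6) from 250 bases before to 50 after a start were available for 7 genes, in 9 windows, and Usp18 and Dhx58 had no entry. The ISRE core was searched as GAAANNGAAA, or TTTCNNTTTC when read on the other strand, and the GAS element as TTCNNNGAA, which is its own reverse complement. No ISRE match shared bases with a GAS match in these windows. The ISRE core was present in the windows of 3 genes, and in 3.44% of all 32851 windows of the same length. The GAS letters were present in a window of 1 gene, Irf1, and in 8.30% of all windows. Irf7, Irf9 and Tlr3 held neither in their windows. Each line gives 30 bases in the direction of transcription, with the match in capitals.
Stat2 (chr10:128270266-128270295, plus strand, ISRE core at -222 to -213 from the start): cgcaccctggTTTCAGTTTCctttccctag
Ddx58 (chr4:40239804-40239833, minus strand, ISRE core at 3 to 12 after the start): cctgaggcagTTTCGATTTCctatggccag
Ifih1 (chr2:62646206-62646235, minus strand, ISRE core at 33 to 42 after the start): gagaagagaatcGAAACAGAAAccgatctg
Irf1 (chr11:53769914-53769943, plus strand, GAS at -90 to -82 from the start): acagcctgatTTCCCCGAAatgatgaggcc
The ISRE cores of Ddx58 and Ifih1 lie in the first bases of the transcript, and that of Stat2 lies upstream. A match describes letters and was not tested for binding.

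Values are RMA signals on the log2 scale as deposited, so a difference of 1 is 2-fold. Signals are compared between arrays for the same probe set, never between genes. With 1 array per condition there is no replicate error, so no test was possible, and a difference is called where it reaches 1. Precision is limited by the number of arrays. A gene was kept where at least 1 array reached the brightness filter of 5.87, the median of all named probe set values, and 10698 genes were kept. All 9 genes were kept. Irf7, Usp18 and Tlr3 reached the filter on the GFP arrays alone and Dhx58 on the array of mock-treated GFP cells alone. These 4 genes were kept through the arrays on which they are high, and their log2 differences rest on readings near background in p63 cells. Stat2 was below the filter on the array of etoposide-treated p63 cells alone.

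The Trp63 signal was 9.29 and 8.75 on the p63 arrays with etoposide and mock treatment, against 5.59 and 4.87 on the GFP arrays. Mdm2, a target of p53, read 12.3 in etoposide-treated and 9.71 in mock-treated p63 cells, and 12.4 and 9.99 in GFP cells under the same treatments. On 78 genes the mock-treated p63 array was at least 1 away from each other array, with those 3 spanning at most 0.5. The same held for 2 genes on the etoposide-treated p63 array, 1 on the etoposide-treated GFP array and 22 on the mock-treated GFP array. Of 8 fibroblast markers 6 were above the filter on all arrays, and Pdgfra and Thy1 were below it on all. None of 5 haematopoietic and 4 endothelial markers reached the filter. The mean log2 signal of the haematopoietic markers was 4.40 and 4.47 in p63 cells with etoposide and mock treatment, and 4.45 and 4.27 in GFP cells. That of the endothelial markers was 4.71 and 4.60 in p63 cells and 4.77 and 4.54 in GFP cells. Of 4 plasmacytoid dendritic cell markers, Siglech and Ccr9 were below the filter on all arrays, and Tcf4 and Bst2, which other cells express too, were above it on all, with a list mean of 5.55 and 5.99 in p63 cells and 6.31 and 6.58 in GFP cells. Of 4 basal epithelial markers, Krt5 and Krt14 were above the filter in p63 cells alone and Cdh1 and Epcam were below it on all arrays. The list's mean was 7.60 and 7.57 in p63 cells, against 5.31 and 5.05 in GFP cells. These keratins move with the p63 comparison, and their part in it was not tested.

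The first comparison asks how p63 cells differ from GFP cells. Of the 9 genes, 8 were lower in p63 cells by at least 2-fold under mock treatment, where 3.76% of all genes kept were that much lower. Under etoposide 5 of the 9 were lower by that much, where 0.514% of genes kept were. Irf7, Irf9, Usp18, Ddx58 and Ifih1 were lower under both treatments, as were 0.486% of genes kept, and these comparisons share no array. Raising readings below the filter to the filter value left 6 lower under mock treatment, without Dhx58 and Tlr3, where 334 of 10698 genes kept were. It left the same 5 under etoposide, where 31 were. The 9 genes were chosen with earlier results of these data known, so the counts beside these shares are descriptive. None of the 9 was higher by 2-fold, where 1.38% of genes kept were under etoposide and 2.42% under mock treatment. The median difference of the 9 was -1.33 under etoposide and -2.33 under mock treatment, against 0.02 and -0.14 for all genes kept. In a culture measured in bulk, fewer cells expressing a gene and less RNA per cell cannot be told apart. Both comparisons use the same pair of lines, so p63 and any other difference between those lines cannot be told apart.

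**Figure D1:**
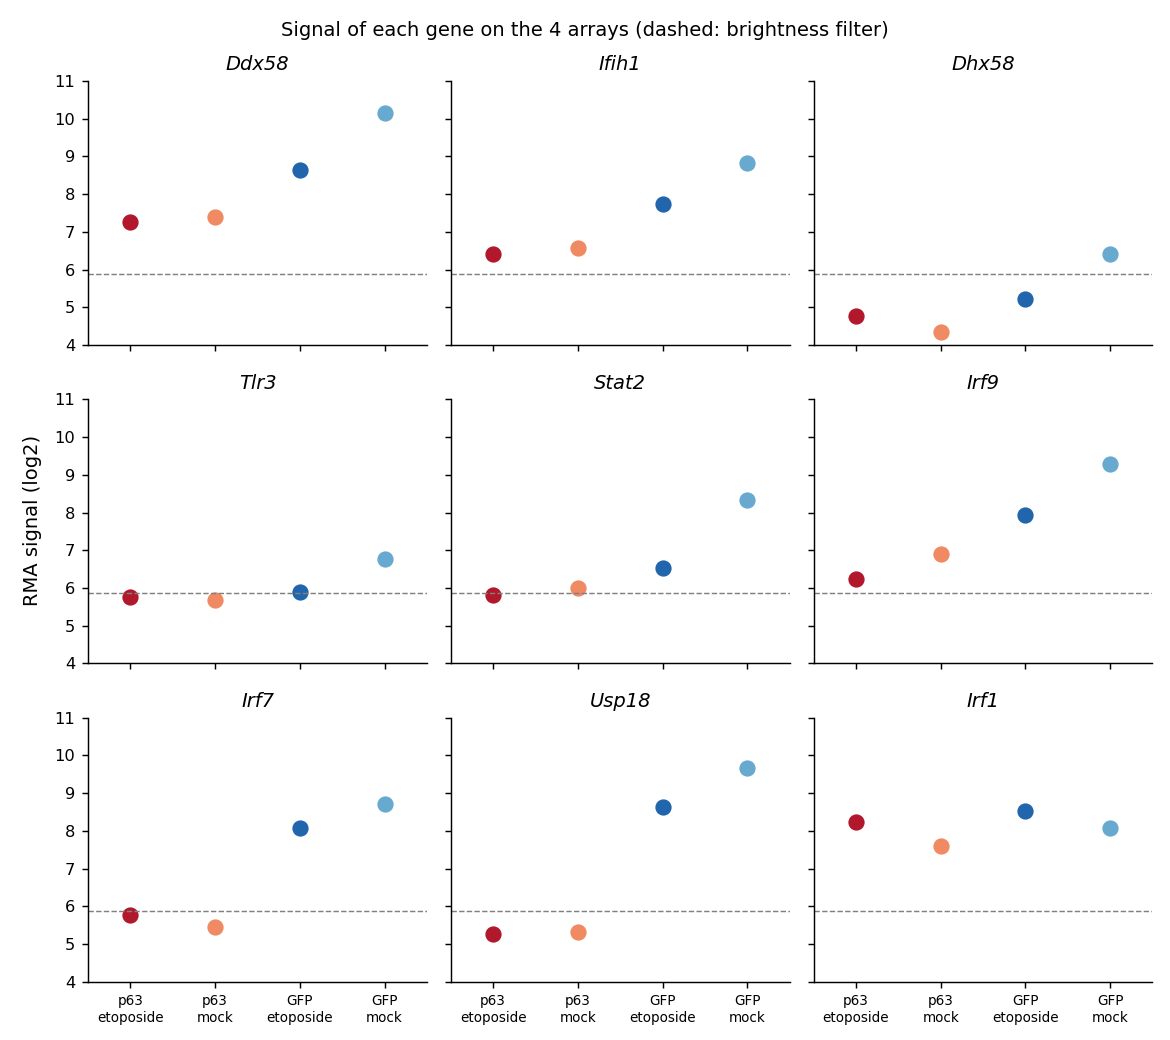
Log2 RMA signal of the 9 genes (vertical axis) on the arrays of p63 cells with etoposide or mock treatment and GFP cells with etoposide or mock treatment (horizontal axis), 1 point per array, with the brightness filter of 5.87 dashed. In 8 panels the GFP mock point is highest, up to 10.2 for Ddx58, and the GFP etoposide point is next, while in the panel of Irf1 the GFP etoposide point is highest, at 8.52.

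Among the sensors, Ddx58, which recognises short RNA with a 5' triphosphate, read 7.25 in etoposide-treated and 7.40 in mock-treated p63 cells, against 8.63 in etoposide-treated and 10.2 in mock-treated GFP cells. All 4 readings were above the filter, and both p63 arrays lay below both GFP arrays. The p63 difference was -1.37 under etoposide and -2.76 under mock treatment, or 2.59-fold and 6.78-fold lower.

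Ifih1, the sensor of long double-stranded RNA, read 6.42 and 6.58 in p63 cells with etoposide and mock treatment, against 7.75 and 8.83 in GFP cells with the same treatments. It gave the same order of arrays as Ddx58, with all readings above the filter. Its p63 differences were -1.33 under etoposide and -2.25 under mock treatment, or 2.51-fold and 4.75-fold lower.

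Dhx58 encodes LGP2, a relative of both helicases that lacks the caspase recruitment domains needed for signalling and modulates their activity. It read 4.78 in etoposide-treated and 4.35 in mock-treated p63 cells, against 5.23 in etoposide-treated and 6.42 in mock-treated GFP cells, so that only the last of these is above the filter. The p63 difference under mock treatment was -2.07, and it was -0.55, short of a call, once dim readings, those below the filter, were raised to the filter value. Under etoposide both lines were below the filter and no fold is given.

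Tlr3 read 5.75 and 5.69 in p63 cells with etoposide and mock treatment, against 5.88 in etoposide-treated and 6.76 in mock-treated GFP cells. Its differences were -0.13 under etoposide and -1.07 under mock treatment. The call under mock treatment was lost with dim readings raised to the filter (-0.89) and with arrays centred on their medians (-0.85).

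Of the ISGF3 subunits, Stat2 read 5.81 in etoposide-treated and 6.00 in mock-treated p63 cells, against 6.53 in etoposide-treated and 8.33 in mock-treated GFP cells. Mock-treated GFP cells stood above the other arrays, which lay between 5.81 and 6.53. The p63 difference was -2.33 under mock treatment, 5.04-fold lower, and -0.72 under etoposide, which was not called. The reading of etoposide-treated p63 cells was below the filter, and with it raised the difference under etoposide was -0.66.

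Irf9, the DNA-binding subunit of ISGF3, read 6.23 and 6.89 in p63 cells with etoposide and mock treatment, against 7.92 and 9.30 in GFP cells. The 4 readings were all above the filter. Irf9 was lower in p63 cells by 3.23-fold under etoposide (-1.69) and 5.32-fold under mock treatment (-2.41).

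Irf7, the factor that drives the later wave of interferon alpha transcription, read 5.77 in etoposide-treated and 5.45 in mock-treated p63 cells, against 8.06 in etoposide-treated and 8.72 in mock-treated GFP cells. Both p63 readings were below the filter and both GFP readings were more than 2 above it. With the p63 readings raised to the filter, Irf7 was at least 4.58-fold lower under etoposide and at least 7.22-fold lower under mock treatment.

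Usp18 showed the widest gap between the lines among the 9 genes. It read 5.28 and 5.31 in p63 cells with etoposide and mock treatment, against 8.62 and 9.67 in GFP cells. Both p63 readings were below the filter. Raised to it, they gave at least 6.73-fold lower signal under etoposide and at least 13.97-fold lower under mock treatment. With dim readings of all 10698 genes kept raised in this way, Usp18 ranked 2 from the lowest p63 difference under etoposide and 3 under mock treatment. On the same scale under etoposide Irf7 ranked 5, Irf9 9, Ddx58 15 and Ifih1 18.

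Irf1 did not share this pattern. Its brighter probe set read 8.22 in etoposide-treated and 7.60 in mock-treated p63 cells, against 8.52 in etoposide-treated and 8.07 in mock-treated GFP cells. The p63 differences of -0.30 under etoposide and -0.47 under mock treatment were not called, on readings all above the filter. On the same scale they ranked 874 from the lowest under etoposide and 2268 under mock treatment. Under etoposide Tlr3 (4479) and Dhx58 (4649), which rest on readings near or below the filter, ranked farther from the lowest than Irf1. The other Irf1 probe set stayed between 5.17 and 5.39 on the 4 arrays, below the filter.

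**Figure D2:**
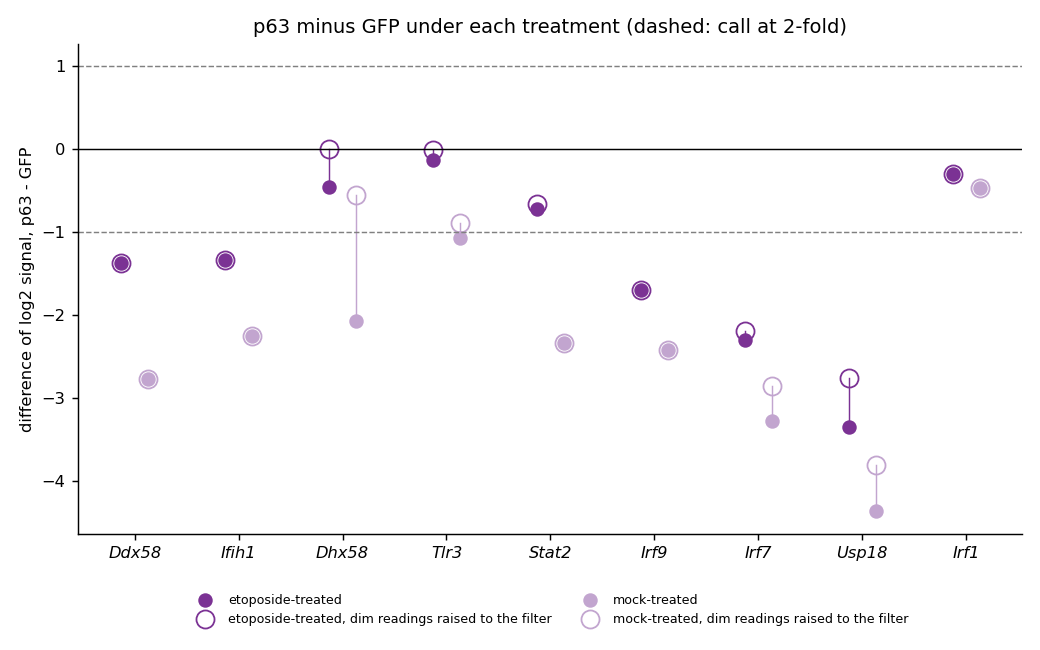
Difference of log2 signal, p63 minus GFP (vertical axis), for the 9 genes (horizontal axis) in etoposide-treated and mock-treated cells, as deposited (filled) and with dim readings set to the filter value (open), with the 2-fold call dashed. Usp18 lies lowest, at -3.34 and -4.36, and Dhx58 moves from -2.07 to -0.55 under mock treatment when its dim readings are raised.

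The genes differed in how much of the mock-treated gap between the lines was present under etoposide. For Usp18 the etoposide-treated gap was 76.7% of the mock-treated one on the log2 scale, for Irf9 70.1% and for Irf7 70.1%. It was 59.1% for Ifih1 and 49.8% for Ddx58. For Stat2 it was 30.9%, for Dhx58 21.8% and for Tlr3 11.9%. Over the deposited values, centred arrays, cyclic loess and raised dim readings, the share ranged from 72.3% to 82.6% for Usp18, 70.1% to 80.6% for Irf9, 70.1% to 77.7% for Irf7, 59.1% to 69.3% for Ifih1, 49.8% to 57.2% for Ddx58 and 28.2% to 37.8% for Stat2. Between the ISGF3 subunits, the share was larger for Irf9 than for Stat2 under each of these 4 settings. That of Stat2 rests on p63 readings near the filter, of which the etoposide-treated one was below it. For Usp18 and Irf7 the p63 readings were below the filter, and with these raised Irf7 (76.9%) stood above Usp18 (72.3%), so their order is not settled. For Dhx58 (0% to 28.6%) and Tlr3 (1.06% to 24.4%) the share also rests on readings near or below the filter. For Irf1, with no call under either treatment, the share was 63.3% as deposited and 147% with arrays centred, and its denominator is too small for the share to be read.

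The second comparison asks how etoposide alters these genes in each line. In p63 cells 0 of the 9 genes differed by 2-fold in either direction, where 6.28% of genes kept were higher and 1.33% lower. This count is near those shares. Irf7, Usp18, Dhx58 and Tlr3 read below the filter on both p63 arrays, where a decrease could not be read. In GFP cells 6 of the 9 were lower (Irf9, Stat2, Usp18, Ddx58, Ifih1 and Dhx58), where 2.12% of genes kept were lower and 3.52% higher. None of the 9 was higher there. The median of the 9 was -0.04 in p63 cells and -1.07 in GFP cells, against 0.10 and -0.08 for all genes kept. The comparison in GFP cells uses the same mock-treated GFP array as the p63 comparison under mock treatment, and these counts are not separate evidence of each other. Without that array, the values left are the 0 calls in p63 cells and the 5 lower genes of the p63 comparison under etoposide. The first count is near the shares of all genes kept, and both use the etoposide-treated p63 array. Without the mock-treated p63 array, the 6 lower genes in GFP cells and the same 5 under etoposide are left. These 2 counts both use the etoposide-treated GFP array, so they are not separate evidence of each other either.

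Stat2 had the largest etoposide difference of the 9 in GFP cells, at -1.80 or 3.49-fold lower, and stood at -0.19 in p63 cells. Its p63 readings lay near the filter, where a further decrease could hardly be read. Ddx58 was lower by 2.89-fold in GFP cells (-1.53), with a difference of -0.15 in p63 cells. Irf9 was at -0.66 in p63 cells and 2.59-fold lower in GFP cells (-1.38), and was the only one of the 9 to lie lower by more than 1.5-fold in p63 cells, as 5.50% of genes kept did.

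Usp18 (-1.05) and Ifih1 (-1.07) were close to the threshold in GFP cells, and they were not called with arrays centred (-0.96 and -0.98) or after cyclic loess (-0.97 and -0.98). In p63 cells Usp18 stood at -0.04 and Ifih1 at -0.16. For Usp18 both p63 readings were below the filter, where a further decrease could not be read.

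Irf7 and Tlr3 did not reach a call in GFP cells, at -0.66 and -0.88. In p63 cells they stood at 0.32 and 0.06, on readings below the filter. Dhx58 stood at 0.43 in p63 cells, likewise below the filter, and at -1.19 in GFP cells, or -0.55 with its dim reading raised.

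Irf1 had a positive etoposide difference in both lines, at 0.62 in p63 cells and 0.45 in GFP cells, or 1.54-fold and 1.36-fold. Neither was called, and 16.5% of genes kept were higher by at least 1.5-fold in p63 cells. Of the 9 genes, Irf1 was the only one with a positive difference in GFP cells.

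**Figure D3:**
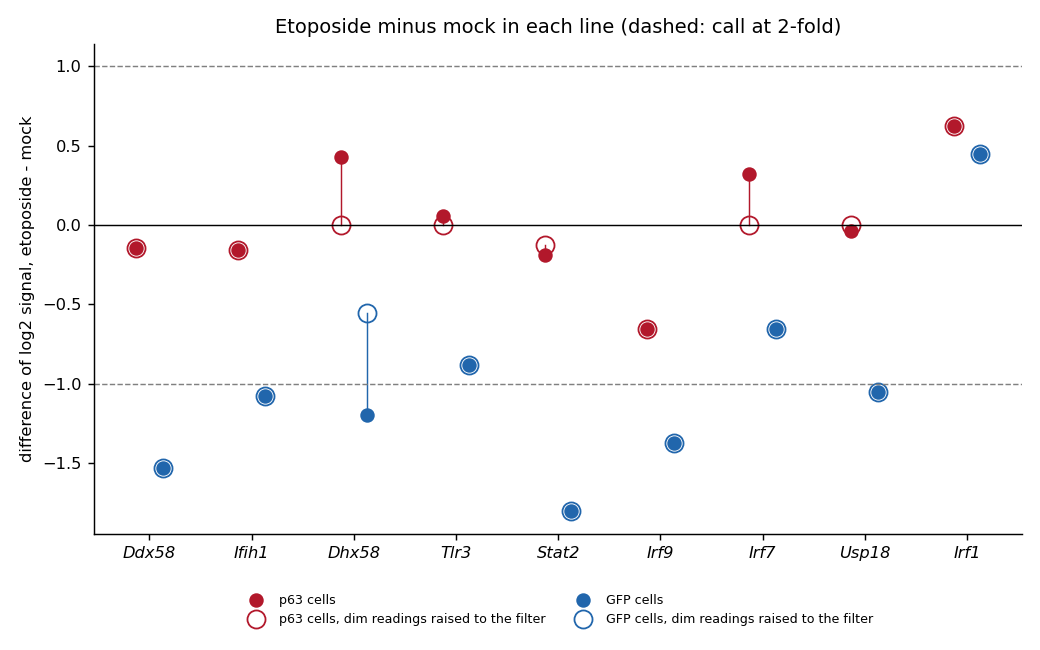
Difference of log2 signal, etoposide minus mock (vertical axis), for the 9 genes (horizontal axis) in p63 cells and GFP cells, as deposited (filled) and with dim readings set to the filter value (open), with the 2-fold call dashed. In p63 cells all values lie between -0.66 and 0.62, while in GFP cells 6 genes lie below -1 as deposited and Irf1 lies at 0.45.

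The change of the etoposide difference by p63 (its value in p63 cells less its value in GFP cells) was positive for all 9 genes as deposited, with a median of 0.98 against 0.20 for all genes kept, of which 7409 of 10698 were positive. It reached 1 for Dhx58 (1.62), Stat2 (1.61), Ddx58 (1.39) and Usp18 (1.02), where 2.84% of genes kept did so. It reached 1.5-fold for 8 of the 9, where 16.7% of genes kept did. With dim readings raised to the filter Dhx58 stood at 0.55, and with arrays centred Usp18 stood at 0.72 and Irf1 at -0.12. After cyclic loess Usp18 stood at 0.87, Tlr3 at 1.01 and Irf1 at -0.05. The calls of Stat2 and Ddx58 were present under each of the scalings run, at 1.32 and 1.09 with arrays centred and 1.55 and 1.16 after cyclic loess. Irf7, Usp18, Dhx58 and Tlr3 read below the filter on both p63 arrays, and Stat2 read near it. A decrease in p63 cells could hardly be read for these genes, so a decrease in GFP cells alone gives them a positive value. Rescaling the arrays does not remove this limit. Of the called genes, only Ddx58 was above the filter on all 4 arrays. This quantity uses all 4 arrays and was not tested.

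The genes around these 9 in the pathway were described by role, and their counts stand beside the shares of all genes kept given above, which in p63 cells were 0.514% lower and 1.38% higher under etoposide and 3.76% lower and 2.42% higher under mock treatment. Of 8 interferon receptor and kinase genes kept, 0 differed by 2-fold in either p63 comparison, a count near those shares. The list's median was 0.16 under etoposide and 0.05 under mock treatment, and its values ran from -0.34 to 0.76 and from -0.48 to 0.82. The highest was Il10rb, a chain of the receptors for interleukin 10 and interferon lambda, in both. Ifnar1 stood at 0.27 and -0.48, Ifnar2 at -0.08 and -0.32 and Jak1 at 0.18 and 0.06 in the p63 comparisons under etoposide and mock treatment. Tyk2 read between 5.54 and 5.89 on the 4 arrays, near the filter.

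Of 16 interferon genes measured, 3 were kept and none of these was called in any comparison. Ifnb1, which encodes interferon beta, read 2.88 and 3.30 in p63 cells with etoposide and mock treatment and 3.14 and 3.13 in GFP cells, below the filter on all arrays. A reading below the filter does not show that a transcript is absent.

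Among the other STAT and IRF genes, 0 of 10 kept were called in either p63 comparison or in either etoposide comparison. That count is near the shares of all genes kept in each. Irf3, the constitutive factor downstream of the RNA sensors, stood at -0.17 under etoposide and -0.10 under mock treatment in the p63 comparisons.

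Of 13 adaptors and kinases of RNA sensing kept, 1 was lower in both p63 comparisons, as were 0.486% of genes kept. This was Trim25, a ubiquitin ligase associated with RIG-I activation, which read 5.56 and 6.04 in p63 cells with etoposide and mock treatment, against 6.77 and 8.20 in GFP cells. Its difference under etoposide was -1.21, or -0.90 with its dim reading raised, and under mock treatment it was -2.16. Mavs stood at 0.09 and -0.36 in the p63 comparisons under etoposide and mock treatment.

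Of 10 other RNA sensors and toll-like receptors kept, 4 were lower in p63 cells under mock treatment (3.76% of genes kept) and 1 under etoposide (0.514%), or 3 and 0 with dim readings raised. Ddx60, a helicase related to antiviral RNA sensing, was lower in both, at -1.54 under etoposide and -3.02 under mock treatment. It was above the filter in mock-treated GFP cells alone, so that with dim readings raised it stood at 0.00 and -0.61.

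Of 10 feedback inhibitors and genes of ISG15 conjugation kept, 2 were lower in both p63 comparisons (0.486% of genes kept). Ube2l6, the conjugating enzyme for ISG15, stood at -1.01 under etoposide, just past the threshold, and at -2.28 under mock treatment. With its dim reading of mock-treated p63 cells raised, the latter was -1.77. Trim30a stood at -2.23 under etoposide and -4.79 under mock treatment, or at -0.92 and -2.59 with dim readings raised. Cish, a STAT5-induced inhibitor of cytokine signalling, was the one gene of these lists called higher after etoposide in both lines, by 1.57 in p63 cells and 1.21 in GFP cells, where 2.57% of genes kept were. With dim readings raised it stood at 1.06 and 0.50.

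Of 13 further ISGF3 targets kept, 8 were lower in both p63 comparisons (0.486% of genes kept). The list's median was -1.33 under etoposide and -3.33 under mock treatment, or -0.71 and -1.67 with dim readings raised, since many of these genes read below the filter in p63 cells. Raised in the same way, the medians of the 9 genes stayed at -1.33 and -2.33. After etoposide, 1 of the 13 was lower (1.33% of genes kept) and 1 higher (6.28%) in p63 cells, and 8 were lower in GFP cells (2.12%). The higher one, Ifit1 (1.15), stood at 0.68 with its dim reading raised and was then not called. Bst2, the tetherin gene, was lower in p63 cells by 3.12 under each treatment, with all readings above the filter and an etoposide difference of -0.40 in each line. Ifit1, Oasl2, Rtp4, Mx2, Xaf1, Rsad2 and Ifit3 were the other 7, with differences from -1.21 to -2.71 under etoposide and from -1.99 to -4.97 under mock treatment. With dim readings raised, Rsad2 and Ifit3 stood at 0.00 under etoposide and Mx2 (-0.71) and Xaf1 (-0.95) were not called there, which left 4 of the 8 lower in both. Ifit2 was an exception, at -0.29 and 0.00 in the p63 comparisons, and was lower after etoposide in both lines, with differences of -1.29 in p63 cells and -1.004 in GFP cells, where 0.608% of genes kept were. The lists were chosen with results of these arrays known, so the counts describe the pathway and are not independent of the 9 genes.

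**Figure D4:**
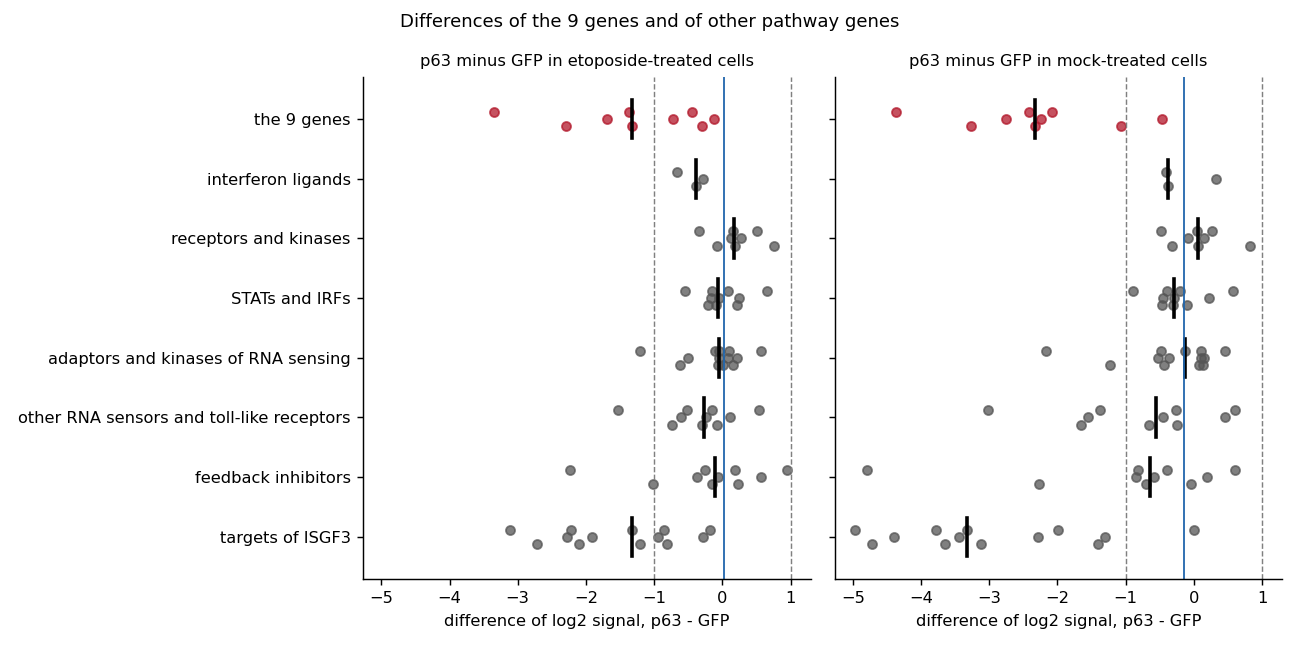
Difference of log2 signal, p63 minus GFP (horizontal axis), in etoposide-treated cells (left) and mock-treated cells (right) for the 9 genes and for the genes kept of 7 other pathway lists (rows), 1 point per gene, with each list's median as a black bar, the median of all genes kept in blue and the 2-fold call dashed. The medians of the 9 genes lie at -1.33 and -2.33 with or without dim readings raised, those of the ISGF3 targets at -1.33 and -3.33 as plotted but -0.71 and -1.67 with dim readings raised, while receptors and kinases lie at 0.16 and 0.05.

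The median profile of the 9 genes, each centred on its own mean over the arrays, was -0.97 in etoposide-treated and -0.82 in mock-treated p63 cells, against 0.34 in etoposide-treated and 1.67 in mock-treated GFP cells. Ifih1 (distance 0.23, Euclidean over the 4 log2 values) and Ddx58 (0.25) lay closest to it, and Usp18 (1.97) and Irf1 (2.04) farthest from it. Among the other genes kept, the 8 nearest by this distance over 4 arrays were Parp12 (0.21), Plscr2 (0.29), Ifi205 (0.30), Gbp7 (0.33), Trim25 (0.33), Oas1b (0.36), Rsad2 (0.41) and Dtx3l (0.44). Parp12, the nearest, read 7.01 and 7.25 in p63 cells with etoposide and mock treatment, against 8.22 and 9.51 in GFP cells. All 8 had a p63 difference of at least -2.79 and at most -1.99 under mock treatment. That follows from their selection, which used these same values. Parp12 and Dtx3l were above the filter on all 4 arrays. Dtx3l was only just above it in p63 cells, at 5.91 with etoposide and 5.92 with mock treatment. Plscr2, Ifi205, Oas1b and Rsad2 reached it on the mock-treated GFP array alone, so their distances and differences rest on readings below the filter and these genes were kept through the array on which they are high. Gbp7 reached the filter on 2 arrays and Trim25 on 3. With 4 arrays, many genes can come close to any profile.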

How the data were processed

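RNA of 4 cultures was measured, 1 array per group, with groups taken from the labels. Per the submitters' processing notes, the authors made the deposited log2 signals with the RMA method of Affymetrix Expression Console, whose version is not stated there. RMA equalises the intensity distributions of the arrays, so a shift shared by most genes is largely removed. Base 2 was inferred from the values, which span 1.27 to 14.4. A platform annotation of 2016 gave 1 gene symbol for 21789 of 35512 probe sets, and 21698 of these matched RefSeq (GRCm38.p6) by Entrez identifier. It gave several symbols for 1621, and 12102 were not listed. The probe set with the highest mean stood for a gene. A gene was kept at a maximum of at least the 50th percentile (5.87).

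No replicates exist, so differences were computed in Python 3.11.15 (pandas 2.3.3) without a test. Alternatives were arrays centred on medians, cyclic loess (limma 3.58.1), raised dim readings, no filter, the 75th percentile, a 1.5-fold threshold and the median probe set. The 9 genes and all lists were chosen with earlier results of these data known. Named genes were the 9, list genes called in both comparisons of a pair, pathway genes whose role was needed, and the 8 nearest profiles. Cdkn1a and Isg15 were not analysed here.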

Additional observations from a re-analysis of the deposited data

Results flagged for a closer look

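The lines, or the treatments, gave differences of opposite sign for some named genes. With 1 array per group none of these contrasts was tested, and 37.1% of all genes kept had opposite signs of the etoposide difference in the lines. Of the 9 genes, the etoposide difference in p63 cells less its value in GFP cells was 1.62 for Dhx58, 0.978 for Irf7 and 0.941 for Tlr3. All 3 read below the filter on both p63 arrays, and with these readings raised to it their etoposide difference in p63 cells was 0. With arrays centred, that of Tlr3 was negative in both lines.

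Among other pathway genes with opposite signs in the lines, the same quantity was 2.61 for Ifit1, 2.56 for Trim30a, 2.25 for Rtp4, 2.18 for Oasl2, 1.87 for Xaf1, 1.49 for Ddx60, 1.37 for Mx2 and 1.27 for Ube2l6. It was 0.745 for Ifnar1 and -0.26 for Tyk2. Trim30a, Rtp4, Oasl2, Xaf1, Ddx60, Mx2 and Tyk2 read below the filter on both p63 arrays, so that with dim readings raised their etoposide difference in p63 cells was 0 and the opposite signs were gone. On that scale the quantity was 2.14 for Ifit1, 1.97 for Oasl2, 1.67 for Trim30a, 1.63 for Xaf1, 1.58 for Rtp4, 0.76 for Ube2l6, 0.61 for Ddx60, 0.55 for Mx2 and -0.02 for Tyk2. The p63 difference under etoposide minus that under mock treatment had opposite signs behind it for Ifnar1 (0.745), Mavs (0.455) and Ifit2 (-0.289).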

How the results depend on the processing

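No paired analysis was possible because each group holds 1 array. A value was taken as moved where it shifted by more than 0.45, the SD over genes kept of the change of the etoposide difference between the lines. No called value of the 9 genes changed sign with arrays centred, after cyclic loess or with dim readings raised. The other alternatives leave the called values of the genes they keep as they are, so they could not change a sign. At the 1.5-fold threshold, 1 of the 9 genes was lower (Irf9) and 1 higher (Irf1) after etoposide in p63 cells, where 5.50% and 16.5% of genes kept were, and the difference of the etoposide differences reached it for 8 genes, where 16.7% of genes kept did. With dim readings raised to the filter, values moved for Dhx58 (-0.55 in GFP cells after etoposide, -0.55 for p63 under mock treatment, 0.55 for the change of the etoposide difference, each no longer called) and Usp18 (-2.75 under etoposide, -3.80 under mock treatment). Then 6 rather than 8 genes were lower in p63 cells under mock treatment, 5 rather than 6 after etoposide in GFP cells, and 3 rather than 4 had a called change of the etoposide difference. With arrays centred and after cyclic loess, 4 rather than 6 were lower after etoposide in GFP cells. The filter at the 75th percentile left out Dhx58 and Tlr3. Signal over background limits Dhx58, Tlr3, Irf7 and Usp18 in p63 cells, and Stat2 in p63 cells with etoposide.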

Other observations

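Values of 5 further pathway genes, chosen here because their etoposide differences were seen to be high, are given without a contrast to the 9 genes. Myd88, the adaptor of most toll-like receptors, had an etoposide difference of 1.70 in p63 cells and 0.97 in GFP cells. Ikbke, a kinase that phosphorylates IRF3 and IRF7, stood at 1.39 and 0.97, and Ifngr2, a chain of the interferon gamma receptor, at 1.07 and 0.99 in p63 and GFP cells. These 3 were called in p63 cells, where 6.28% of genes kept were higher, and fell just short of the threshold in GFP cells, where 3.52% were higher. Tnfaip3, which encodes the NF-kB inhibitor A20, stood at 1.27 in p63 cells and -0.37 in GFP cells. Socs3, an inhibitor of cytokine receptor signalling, stood at 0.46 in p63 cells, which was not called, and 1.21 in GFP cells.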
